A study of Mus musculus with 12 samples.

Results

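The genes described here are 10 that lie near Arid1a on mouse chromosome 4: Rpl11, Snhg3, Eloa, Pnrc2, Rcc2, Clic4, Pafah2, Paqr7, Tmem54 and Tmco4. They were chosen by the difference between mutant and wild-type signal on these same arrays, so every difference between genotypes given for them is a description and carries no test. All probes on the array that carry one of these names were used singly, 17 of 41174 probes, with Eloa found under its older symbol Tceb3. Of the 17 probes, 16 were bright enough to be fitted, meaning that Cy5 rose well above background on every array of 1 group or more, as it did for 20065 probes in all (13894 genes). The remaining Tmco4 probe (A_52_P46384) was not well above background on any of the 12 arrays.

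RNA was measured from whole yolk sacs of mutant embryos at E9.5, wild-type embryos at E9.5, mutant embryos at E8.5 and wild-type embryos at E8.5 (embryonic days), with 3 arrays in each of the 4 groups. Mutants carried the V1068G allele of Arid1a, also called Baf250a, on both chromosomes. The labels give CD1 as the background strain of all yolk sacs, do not give the strain on which the mutation arose, and do not say whether a replicate was 1 yolk sac or a pool. Yolk sac RNA carried the dye Cy5, and every array also held the same Cy3-labelled reference RNA from whole neonatal mice of mixed 129Sv and C57BL/6 background, without dye swap. Values below are log2 ratios of Cy5 over Cy3, so 0 means equal signal from yolk sac and reference RNA. Whole yolk sacs hold several cell types, and fewer cells of a type cannot be told apart from less RNA per cell.

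The protein of Arid1a binds DNA and belongs to the SWI/SNF complex, which moves nucleosomes and so changes access to promoters and enhancers. The yolk sac is the extraembryonic membrane of visceral endoderm, blood islands and vessels that feeds the early embryo. When a mutation is bred into another strain, the DNA around it is inherited with it, so genes close to a mutated locus can carry the alleles of the strain of origin. On an oligonucleotide array, a sequence difference under a probe can lower or raise that probe's signal without a change in RNA level. The arrays give no sequence of the hybridised RNA, so a difference in RNA level and a difference in sequence under a probe cannot be told apart from 1 probe.

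Between 47.4% and 50.7% of spots were well above background in Cy5 on each array. Each of 3 slides held 1 array of every group, at a position on the slide that was the same for all arrays of a group, so slide position and group cannot be told apart. Visceral endoderm, primitive erythroid and endothelial markers were detected for 24 of 24 genes. Trophoblast markers stood high on 3 arrays, where Prl4a1 had log2 ratios of 3.74 (mutant at E9.5, replicate 3), 4.31 (wild type at E9.5, replicate 3) and 5.70 (mutant at E8.5, replicate 3), against 0.26 to 1.53 on the other 9 arrays. Wild-type E8.5 replicate 2 stood apart for heart and neural markers of the embryo. Its Myl7 log2 ratio was 0.014 against -3.14 to -1.47 elsewhere, where -1.47 was that of wild-type E8.5 replicate 3. Its log2 ratio of the neural marker Hes5 was 0.061 against -1.55 to -1.41 elsewhere. The maternal decidua marker Prl8a2 ran from 0.69 to 3.53 over all arrays. The Xist log2 ratio was -4.02 on wild-type E9.5 replicate 2 and -4.01 and -4.17 on mutant E8.5 replicates 2 and 3, against -1.98 to -0.52 on the other 9 arrays. Without the 3 arrays high in trophoblast transcripts, no difference between genotypes or stages of the 16 probes moved by more than 0.163, and without wild-type E8.5 replicate 2 none moved by more than 0.136. With the Xist level as a covariate none moved by more than 0.15. The part of these tissues and of Xist in the results was not tested further.

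The probe for Arid1a itself (A_51_P118671, chr4:132951453-132951512, minus strand, in a genome build that the file headers do not name) checked the labels only in part, because a point mutation need not change the amount of RNA. Its log2 ratio was -0.27, -0.13 and -0.16 in mutants at E9.5, against -0.35, -0.32 and -0.38 in wild types. At E8.5 it was -0.093, 0.074 and 0.073 in mutants, against -0.12, 0.040 and -0.016 in wild types. Mutant arrays lay above wild-type arrays at E9.5 and overlapped them at E8.5. The log2 difference, mutant minus wild type, was 0.16 ± 0.06 at E9.5 and 0.051 ± 0.064 at E8.5 (standard error of the fit, n = 3 arrays per group), and neither passed the threshold (limma adjusted p = 0.333 and 0.846). Differences below are given in the same way.

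Across the 16 probes, 9 passed an adjusted p of 0.05 for mutant against wild type at E9.5 (limma, Benjamini-Hochberg), 1 higher and 8 lower in mutants, where 1.51% of all 20065 probes passed (0.668% higher, 0.837% lower). At E8.5, 7 passed, 2 higher and 5 lower, where 0.997% of all probes passed (0.473% higher, 0.523% lower). These counts follow from how the genes were picked, and nothing is read from them. They also moved with the processing: with arrays centred on their median in place of loess, 1 probe passed at E9.5 and 0 at E8.5, and with Xist as a covariate 6 and 1 passed. At E9.5 the calls of Rpl11 A_51_P394524, Pafah2, Pnrc2 and Eloa A_52_P606679 were each lost in 1 alternative, of 26 run for Eloa and 27 for the others. Those of Snhg3, Clic4 A_51_P127681 and Eloa A_51_P517126 were lost in 2, 8 and 9 of 27, and those of Tmco4 A_51_P232824 and Tmem54 in 12 each. At E8.5 the call of Rpl11 A_51_P394524 was lost in 1 of 27, those of Pafah2 and Snhg3 in 2 each, and those of Tmco4 A_51_P232824, Paqr7, Rcc2 A_51_P299670 and Pnrc2 in 7, 8, 10 and 16. The tallies of alternatives here and below count the slide block and the replicate block separately, although they are the same fit. They also count removals of single arrays of the other stage, which leave the estimate unchanged, so the alternatives are not independent. The median log2 difference of the 16 probes was -0.24 at E9.5 and -0.26 at E8.5, and that of all probes was within 0.001 of 0. The arrays of the genotypes did not overlap for 11 probes at E9.5 (16.1% of all probes), for 13 at E8.5 (16.6%) and for 10 at both stages (4.43%). The 13 and the E8.5 median include Tmco4 A_52_P78064, which was well above background on no mutant E8.5 array. Nothing is read from these counts either.

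**Figure D1:**
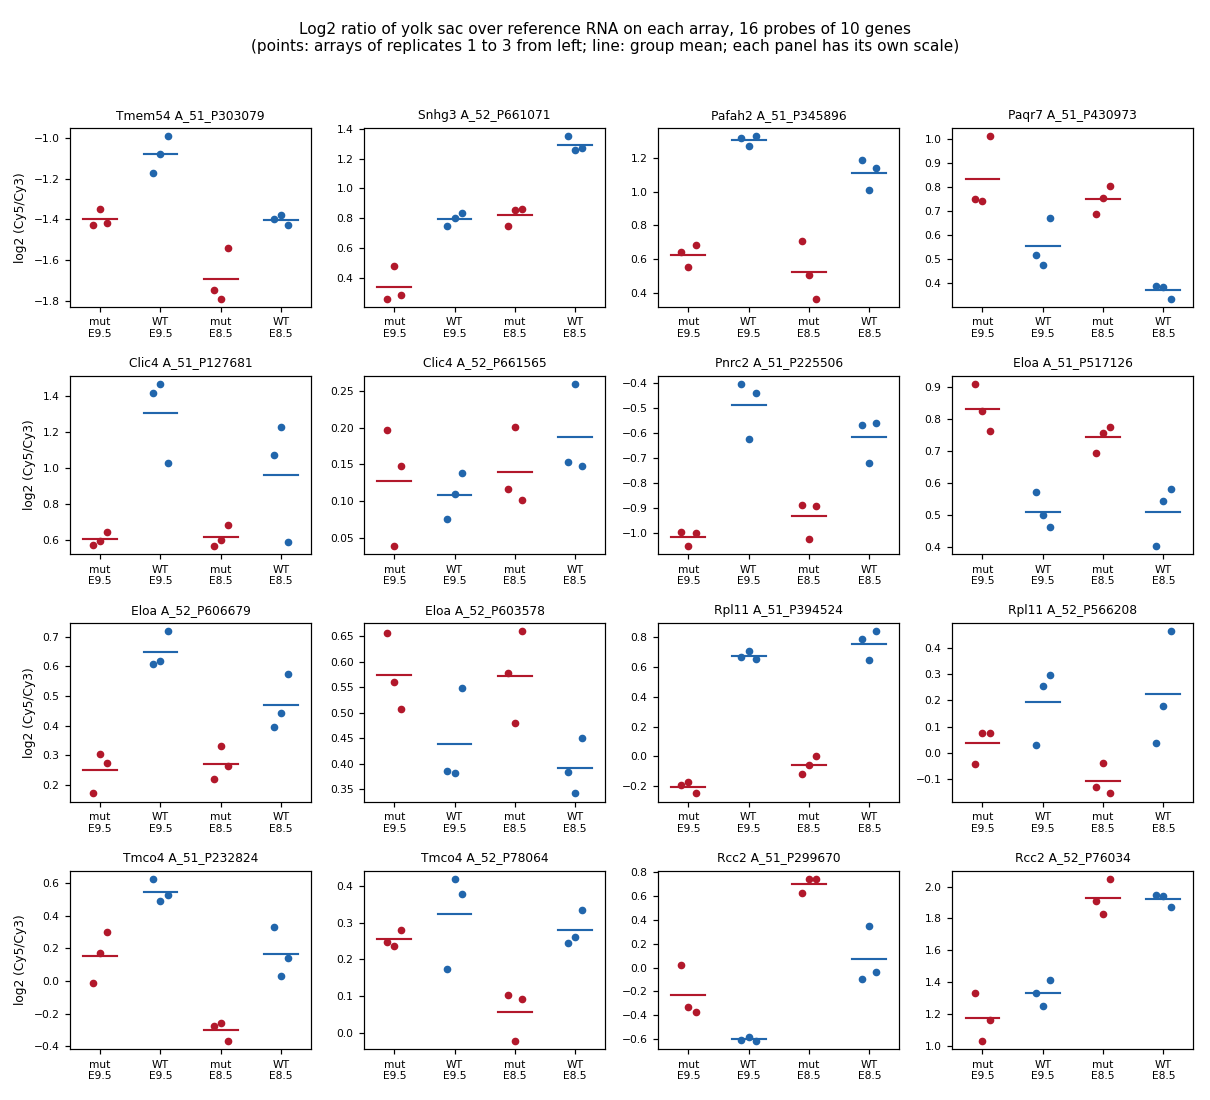
Log2 ratio of Cy5 over Cy3 (vertical axes, 1 scale per panel) for each of the 16 fitted probes on the 12 arrays, with mutant (red) left of wild type (blue) at E9.5 and then at E8.5; points are arrays of replicates 1 to 3 from left and lines are group means. Rpl11 A_51_P394524, Snhg3, Pafah2 and Pnrc2 lie lower in mutants on all arrays at both stages, and both Rcc2 probes lie lower at E9.5 than at E8.5.

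Sequences before the transcription start are shown for the 3 genes that had a probe below wild type past the threshold at both stages and a single start in the RefSeq promoter table (GRCm38.p6), so that the members lower in mutants can be set side by side. Pnrc2 was among them through an E8.5 call that was lost in 16 of the 27 alternatives run. Each sequence runs 5′ to 3′ on the gene's strand, from 120 bases before to 30 bases after the start, and capitals mark CCGGAAGT (a site for ETS factors) and CCAAT (the box bound by NF-Y) on either strand.
Rpl11, chr4:136053364-136053513, minus strand: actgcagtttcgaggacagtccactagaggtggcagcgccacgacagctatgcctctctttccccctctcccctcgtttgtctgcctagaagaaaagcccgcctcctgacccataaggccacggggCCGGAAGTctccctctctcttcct
Snhg3, chr4:132353657-132353806, minus strand: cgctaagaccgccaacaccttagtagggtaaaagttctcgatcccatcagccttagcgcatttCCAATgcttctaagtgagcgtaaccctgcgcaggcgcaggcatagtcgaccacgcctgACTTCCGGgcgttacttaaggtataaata
Pnrc2, chr4:135873817-135873966, minus strand: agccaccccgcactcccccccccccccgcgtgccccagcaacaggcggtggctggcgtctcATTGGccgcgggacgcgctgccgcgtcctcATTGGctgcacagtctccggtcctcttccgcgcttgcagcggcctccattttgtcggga

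The letters CCGGAAGT, or ACTTCCGG on the other strand, occurred just after the start of both Rpl11 and Snhg3, and in 2 of the 16 promoter entries of the 10 genes, against 3.89% of all 32851 promoters of the same length. CCAAT, or ATTGG, occurred 1 time before Snhg3 and 2 times before Pnrc2, and in 4 of the 16 entries, against 37.4% of all promoters. GGGCGG, the GC box, occurred in 8 of the 16 entries against 35.7%, and TATAAA in 1 against 13.6%, each counted on both strands. The motifs do not overlap each other in the sequences shown, and they were chosen after the letters had been seen. A match describes letters in a window and not a bound site.

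Rpl11, which belongs to the large subunit of the ribosome and also binds MDM2 and so stabilises p53, gave the widest gap between genotypes in the ratio of Cy5 over Cy3, though not in Cy5 alone. Its bright probe (A_51_P394524, chr4:135322046-135322368, minus strand) had log2 ratios of -0.19, -0.17 and -0.25 in mutants at E9.5, against 0.67, 0.71 and 0.65 in wild types. At E8.5 it had -0.12, -0.054 and 0.00055 in mutants, against 0.79, 0.64 and 0.84 in wild types. Every mutant array lay below every wild-type array of its stage, with differences of -0.88 ± 0.06 at E9.5 (1.84-fold lower) and -0.81 ± 0.06 at E8.5 (1.76-fold lower). On single slides the difference ran from -0.90 to -0.86 at E9.5 and from -0.90 to -0.70 at E8.5.

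The Rpl11 signal differed in both channels of the arrays, although the Cy3 channel held the same reference RNA throughout. The Cy3 intensity of A_51_P394524 was 10830, 12180 and 11960 on mutant E9.5 arrays, against 8317, 9474 and 8936 on wild-type E9.5 arrays. It was 12290, 14040 and 12590 on mutant E8.5 arrays, against 9057, 10630 and 8291 on wild-type E8.5 arrays. The reference RNA was thus brighter at this probe on all mutant arrays than on all wild-type arrays of the same stage. After scaling of the channels between arrays, the log2 difference of Cy5 alone was -0.54 at E9.5 and -0.47 at E8.5, and that of Cy3 alone was 0.34 at both stages. In Cy5 alone the Rpl11 difference was smaller in size than those of Pafah2 (-0.72 at E9.5, -0.68 at E8.5), of Clic4 A_51_P127681 (-0.75) and Pnrc2 (-0.57) at E9.5, and of Rcc2 A_51_P299670 (0.60) at E8.5. A Cy3 difference at least this large occurred in 0.00498% of tested probes at E9.5 and 0.0199% at E8.5, shares that count this probe itself. The median size over tested probes was 0.0319 at E9.5 and 0.0259 at E8.5. The probe was among the brightest of the array, at the 99.8th percentile of mean intensity, and no spot of it was saturated.

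**Figure D2:**
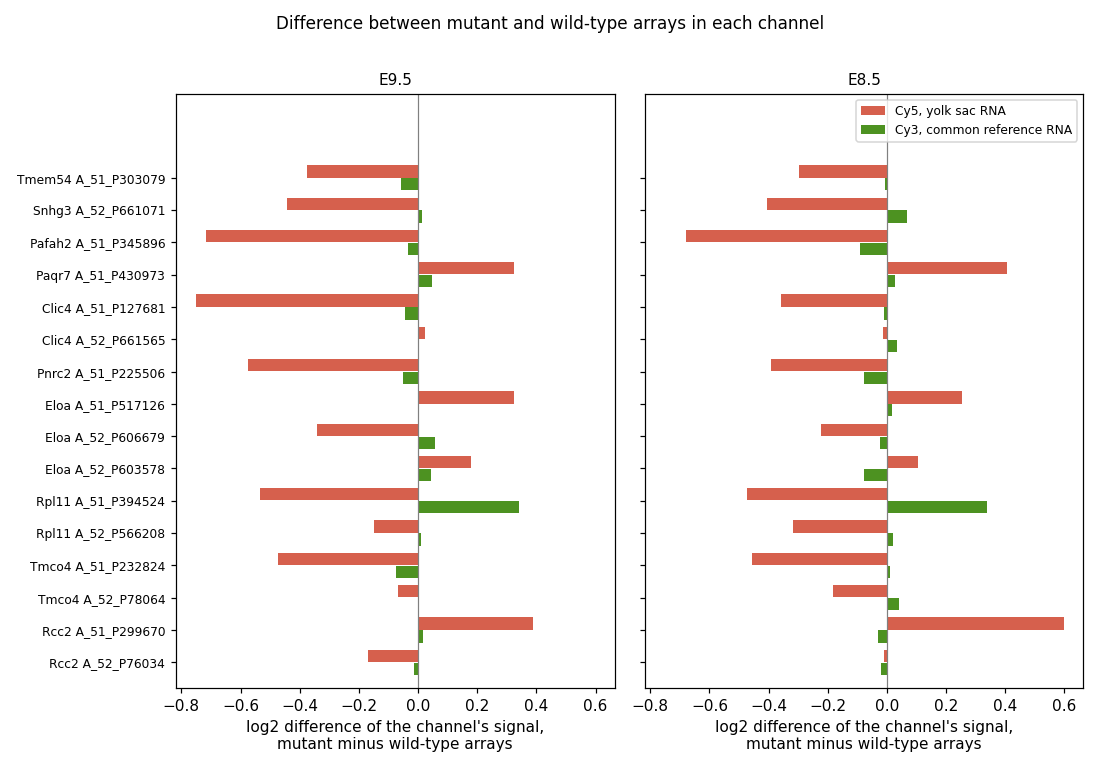
Log2 difference between mutant and wild-type arrays (horizontal axis) in the Cy5 channel with yolk sac RNA (red) and in the Cy3 channel with the common reference RNA (green), for the 16 probes at E9.5 (left) and E8.5 (right), after scaling of the channels between arrays. Rpl11 A_51_P394524 has a Cy3 difference of 0.34 at both stages, opposite in sign to its Cy5 difference, and no other probe of the 10 genes has a Cy3 difference beyond 0.0907 in size.

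The second Rpl11 probe (A_52_P566208, chr4:135322118-135322177, minus strand) was dim. It lies inside the gap of 263 bases that the coordinates of the first, a 60-base probe, leave out, and such a gap is what an intron gives. Its log2 ratios were -0.046, 0.076 and 0.076 in mutants at E9.5, against 0.028, 0.26 and 0.30 in wild types. At E8.5 they were -0.13, -0.040 and -0.16 in mutants, against 0.037, 0.18 and 0.47 in wild types. Groups overlapped at E9.5 and did not at E8.5, with differences of -0.16 ± 0.10 and -0.34 ± 0.10. The E8.5 difference of -0.34 passed the threshold with replicate as a block. With processed signals the E8.5 difference was -0.64 and did not pass. The Cy3 signal of this probe differed by 0.0099 at E9.5 and 0.0193 at E8.5.

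A transcript on chromosome 7 that the files describe as similar to ribosomal protein L11 (LOC628696, probe A_52_P160095) was looked up for this description. It gave -0.87, -0.94 and -1.0 in mutants at E9.5, against -0.27, -0.27 and -0.31 in wild types. At E8.5 it gave -0.84, -1.0 and -0.83 in mutants, against -0.17, -0.41 and -0.15 in wild types. Genotypes did not overlap at either stage, and the differences were -0.65 ± 0.07 at E9.5 and -0.64 ± 0.07 at E8.5. Its Cy3 signal also was higher on mutant arrays, by 0.11 at both stages. How far this probe and the Rpl11 probe bind the same RNA was not tested, and their values are uncertain for that reason. A probe with no gene name that lies on the same strand close to the bright Rpl11 probe (A_52_P595429, at the 99.6th percentile of intensity), picked after its values were seen, differed by 0.05 ± 0.06 at E9.5 and -0.04 ± 0.06 at E8.5.

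Snhg3 is a long noncoding RNA that hosts small nucleolar RNAs. Its probe (A_52_P661071, chr4:131624166-131624225, minus strand) had log2 ratios of 0.26, 0.48 and 0.28 in mutants at E9.5, against 0.75, 0.80 and 0.84 in wild types. The E8.5 values were 0.74, 0.85 and 0.86 in mutants, against 1.35, 1.26 and 1.27 in wild types. Every mutant array lay below every wild-type array of its stage, with differences of -0.46 ± 0.06 at E9.5 and -0.47 ± 0.06 at E8.5, and the Cy3 signal differed by 0.0117 and 0.0677.

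The 3 probes of Eloa, the transcriptionally active subunit of the elongin complex that helps RNA polymerase II through pauses, differed between genotypes in opposite directions. Probe A_51_P517126 (chr4:135277585-135277644, minus strand) had 0.91, 0.83 and 0.76 in mutants at E9.5, against 0.57, 0.50 and 0.46 in wild types. At E8.5 it had 0.69, 0.76 and 0.78 in mutants, against 0.40, 0.54 and 0.58 in wild types. This probe was higher on every mutant array, by 0.32 ± 0.06 at E9.5 and 0.23 ± 0.06 at E8.5.

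The probe nearest to the 3′ end of the gene (A_52_P606679, chr4:135276009-135276068) had 0.17, 0.31 and 0.27 in mutants at E9.5, against 0.61, 0.62 and 0.72 in wild types. The E8.5 values were 0.22, 0.33 and 0.26 in mutants, against 0.39, 0.44 and 0.57 in wild types. It was lower on every mutant array than on any wild-type array of the stage, with differences of -0.40 ± 0.06 at E9.5 and -0.20 ± 0.06 at E8.5. The size depended on the signal used, and was -0.86 and -0.41 with the processed signals of the scanner software. The third, dim probe (A_52_P603578, chr4:135279970-135280029) ran from 0.51 to 0.66 in mutants at E9.5, against 0.38 to 0.55 in wild types, and from 0.48 to 0.66 in mutants at E8.5, against 0.34 to 0.45 in wild types, and differed by 0.46 at E9.5 and 0.67 at E8.5 with processed signals, against 0.14 and 0.18 in the fit used here. Within an array, A_51_P517126 exceeded A_52_P606679 by 0.58 ± 0.14 in mutants at E9.5 (SD, n = 3), against -0.14 ± 0.11 in wild types. At E8.5 the excess was 0.47 ± 0.04 in mutants (SD, n = 3), against 0.039 ± 0.054 in wild types. No single direction can be given for Eloa.

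Pnrc2, a coactivator of nuclear receptors that also links nonsense-mediated decay to removal of the mRNA cap, had 1 probe (A_51_P225506, chr4:135143057-135143116, minus strand). It gave -1.0, -1.05 and -1.0 in mutants at E9.5, against -0.40, -0.63 and -0.44 in wild types. At E8.5 it gave -0.89, -1.02 and -0.89 in mutants, against -0.57, -0.72 and -0.56 in wild types. Every mutant array lay below every wild-type array of its stage, with differences of -0.52 ± 0.07 at E9.5 and -0.32 ± 0.07 at E8.5. The E8.5 call was lost in 16 of 27 alternatives, where the difference ran from -0.47 to -0.23.

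Rcc2, a protein of the centromere and mitotic spindle needed for chromosome alignment, had 2 bright probes that disagreed on genotype. Probe A_51_P299670 (chr4:139995168-139995227, plus strand) had 0.020, -0.33 and -0.37 in mutants at E9.5, against -0.60, -0.58 and -0.61 in wild types. At E8.5 it had 0.62, 0.74 and 0.74 in mutants, against -0.092, 0.35 and -0.035 in wild types. It was higher on every mutant array, by 0.37 ± 0.11 at E9.5 and 0.63 ± 0.11 at E8.5, and the E8.5 difference was 0.76 without wild-type E8.5 replicate 2.

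The other Rcc2 probe (A_52_P76034, chr4:139993413-139993472) had 1.33, 1.03 and 1.16 in mutants at E9.5, against 1.33, 1.25 and 1.41 in wild types. The E8.5 values were 1.91, 1.83 and 2.05 in mutants, against 1.95, 1.94 and 1.87 in wild types. Groups overlapped at both stages, with differences of -0.16 ± 0.08 at E9.5 and 0.0089 ± 0.0773 at E8.5. Within an array the first probe minus the second gave -1.40 ± 0.11 in mutants at E9.5 (SD, n = 3), against -1.93 ± 0.10 in wild types, and -1.23 ± 0.12 in mutants at E8.5 (SD, n = 3), against -1.85 ± 0.23 in wild types.

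Clic4, a chloride intracellular channel protein that in mice takes part in the hollowing of endothelial tubes, was lower in mutants at its bright probe (A_51_P127681, chr4:134486577-134486636, minus strand). Log2 ratios were 0.57, 0.59 and 0.65 in mutants at E9.5, against 1.42, 1.47 and 1.03 in wild types. At E8.5 they were 0.56, 0.60 and 0.68 in mutants, against 1.07, 1.23 and 0.59 in wild types. Mutant arrays lay close together, while wild-type replicate 3 was the lowest wild-type array at both stages and overlapped the mutants at E8.5. The difference was -0.71 ± 0.13 at E9.5 and -0.35 ± 0.13 at E8.5. With all arrays the E8.5 difference did not pass the threshold (limma adjusted p = 0.317). Without both wild-type arrays of replicate 3, a choice made after these values were seen, the differences were -0.85 and -0.53. Without wild-type E8.5 replicate 3 alone, the array that overlapped the mutants, the E8.5 difference passed the threshold, and nothing is read from that. The second Clic4 probe (A_52_P661565, chr4:134498123-134498182) was near background, well above it on 6 of 12 arrays. These were 3 mutant E8.5 arrays and 1 array in each other group, so it was fitted through mutant E8.5 alone. It differed by 0.0196 ± 0.0579 at E9.5 and -0.048 ± 0.058 at E8.5, and nothing is read from these values.

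Pafah2, which removes the acetyl group of platelet-activating factor and cleaves oxidised phospholipids, was lower in mutants. Its probe (A_51_P345896, chr4:133699346-133699405, plus strand) had 0.64, 0.55 and 0.69 in mutants at E9.5, against 1.32, 1.27 and 1.33 in wild types. At E8.5 it had 0.71, 0.51 and 0.37 in mutants, against 1.19, 1.01 and 1.14 in wild types. No arrays overlapped, and the difference was -0.68 ± 0.08 at E9.5 (1.61-fold lower) and -0.59 ± 0.08 at E8.5 (1.5-fold lower). Pafah2 and Paqr7 were the nearest of the 10 genes to Arid1a, at 0.748 and 0.829 Mb.

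Paqr7, a membrane progestin receptor, differed the other way at its probe (A_51_P430973, chr4:133780595-133780654, plus strand). It had 0.75, 0.74 and 1.01 in mutants at E9.5, against 0.52, 0.48 and 0.67 in wild types. The E8.5 values were 0.69, 0.75 and 0.80 in mutants, against 0.39, 0.38 and 0.33 in wild types. Mutants were higher on every array, by 0.28 ± 0.07 at E9.5 and 0.38 ± 0.07 at E8.5, and the E9.5 difference passed the threshold with replicate as a block or in the Cy5 channel alone.

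Tmem54 and Tmco4 encode membrane proteins. The Tmem54 probe (A_51_P303079, chr4:128613759-128613818, plus strand) had -1.43, -1.35 and -1.42 in mutants at E9.5, against -1.17, -1.08 and -0.99 in wild types. At E8.5 it had -1.75, -1.79 and -1.54 in mutants, against -1.40, -1.38 and -1.43 in wild types. Mutant arrays all lay below the wild-type arrays of their stage, with differences of -0.32 ± 0.07 at E9.5 and -0.29 ± 0.07 at E8.5, and with processed signals -0.50 and -0.46. The E9.5 difference passed the threshold, a call lost in 12 of 27 alternatives, and the E8.5 difference did not, a call gained in 4.

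The bright Tmco4 probe (A_51_P232824, chr4:138331073-138331132, plus strand) had -0.011, 0.17 and 0.30 in mutants at E9.5, against 0.63, 0.49 and 0.53 in wild types. The E8.5 values were -0.28, -0.26 and -0.37 in mutants, against 0.33, 0.031 and 0.14 in wild types. It was lower on every mutant array than on any wild-type array of the stage, with differences of -0.40 ± 0.08 at E9.5 and -0.47 ± 0.08 at E8.5. A dim probe in the same stretch of the gene (A_52_P78064, chr4:138330748-138330807) was well above background on no mutant E8.5 array and on all other arrays, so no difference is given for E8.5. At E9.5 it differed by -0.069 ± 0.065, and by -0.42 with processed signals. With processed signals the E8.5 difference of the bright probe was -0.71.

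**Figure D3:**
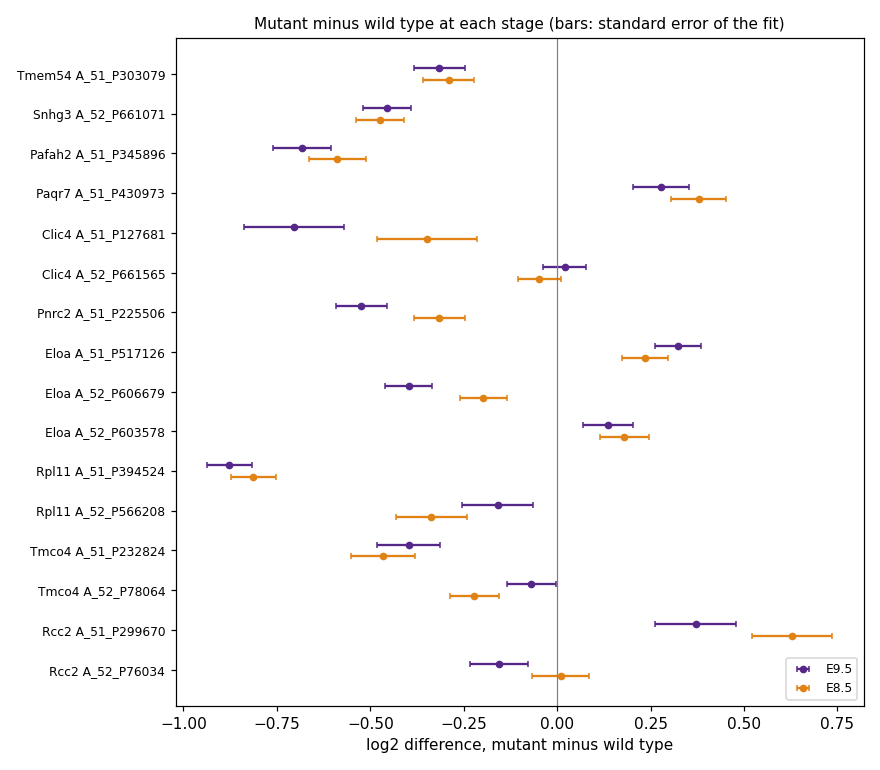
Log2 difference, mutant minus wild type (horizontal axis), of the 16 probes at E9.5 (violet) and E8.5 (orange); points are estimates of the fit and bars their standard errors, with 3 arrays per group. Values run from -0.88 (Rpl11 A_51_P394524 at E9.5) to 0.63 (Rcc2 A_51_P299670 at E8.5), and probes of Eloa and of Rcc2 lie on both sides of 0 at E9.5. Tmco4 A_52_P78064 was not well above background on the mutant E8.5 arrays, and its E8.5 point is not read.

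No probe passed the threshold for a genotype difference that changed with stage, neither among the 16 nor among all 20065 (limma), where 1102 probes had an unadjusted p under 0.05. The stage dependence, the E9.5 difference minus the E8.5 difference, ran among the 16 from -0.36 ± 0.19 (Clic4 A_51_P127681) to 0.18 ± 0.14 (Rpl11 A_52_P566208), with a median of -0.055 against -0.0039 for all probes.

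The change from E8.5 to E9.5 within a genotype was not used to choose the genes, and was tested. It is built from the same group means as the genotype differences, so it is not wholly free of that choice. In mutants 6 of the 16 probes passed an adjusted p of 0.05, 3 higher and 3 lower at E9.5, where 18.6% of all probes passed (9.56% higher, 9.07% lower). One of the 3 higher, the dim Tmco4 probe, was set against mutant E8.5 arrays on which it was not well above background, and of the 14 probes well above background on all 12 arrays 5 passed, 2 higher and 3 lower. In wild types 5 passed, 2 higher and 3 lower, where 20.3% of all probes passed (11% higher, 9.27% lower), and with replicate as a block 8 passed. The median log2 difference of the 16 probes was -0.0048 in mutants and 0.045 in wild types, against -0.0081 and -0.0092 for all probes.

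Both Rcc2 probes fell, and here they pointed the same way. A_51_P299670 fell by 0.93 ± 0.11 in mutants and 0.67 ± 0.11 in wild types on the log2 scale (limma adjusted p = 4.46e-05 and 0.00058, lower on 3 of 3 slides in each). A_52_P76034 fell by 0.76 ± 0.08 in mutants and 0.59 ± 0.08 in wild types (limma adjusted p = 1.26e-05 and 0.000107, lower on 3 of 3 slides in each). Snhg3 fell by 0.48 ± 0.06 in mutants and 0.50 ± 0.06 in wild types (limma adjusted p = 0.00015 and 9.89e-05, again on 3 of 3 slides). With arrays centred on their median in place of loess, the shift of all probes was 0.126 in mutants and 0.094 in wild types. Snhg3 and A_52_P76034 then missed the threshold in both genotypes, and A_51_P299670 missed it in wild types (adjusted p = 0.0871 by limma).

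Tmco4 at its bright probe and Tmem54 rose with stage in both genotypes. Tmco4 A_51_P232824 rose by 0.45 ± 0.08 in mutants and 0.38 ± 0.08 in wild types (limma adjusted p = 0.00182 and 0.00497, higher on 3 of 3 slides in each). Without the 3 arrays high in trophoblast transcripts the rise in mutants was 0.35 and missed the threshold (adjusted p = 0.0641 by limma). Tmem54 rose by 0.30 ± 0.07 in mutants and 0.32 ± 0.07 in wild types (limma adjusted p = 0.00694 and 0.00382, on 3 of 3 slides in each). It missed the threshold in mutants with the Xist level as a covariate (adjusted p = 0.0684) and in wild types without both arrays of replicate 3 (adjusted p = 0.0556, both by limma). For the dim Tmco4 probe A_52_P78064 no rise is given in mutants, since it was well above background on no mutant E8.5 array. Its call there (limma adjusted p = 0.0496) was lost in 14 of 24 alternatives. In wild types it was well above background on all arrays. It changed there by 0.043 ± 0.065, which did not pass the threshold (limma adjusted p = 0.695).

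Bright probes of the other genes did not pass the threshold for stage in either genotype, which does not show that they stayed the same. The 95% interval of the log2 difference was -0.27 to -0.019 in mutants and -0.21 to 0.046 in wild types for Rpl11 A_51_P394524, and -0.065 to 0.26 in mutants and 0.030 to 0.36 in wild types for Pafah2. With replicate as a block, 3 more probes passed in wild types: Clic4 A_51_P127681 at 0.35 (adjusted p = 0.0439), Paqr7 at 0.19 (adjusted p = 0.0481) and Eloa A_52_P606679 at 0.18 (adjusted p = 0.0291, all by limma). The Clic4 value passed without the block too when wild-type E9.5 replicate 3 was left out (0.49, adjusted p = 0.0194) or wild-type E8.5 replicate 2 (0.48, adjusted p = 0.02, both by limma).

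**Figure D4:**
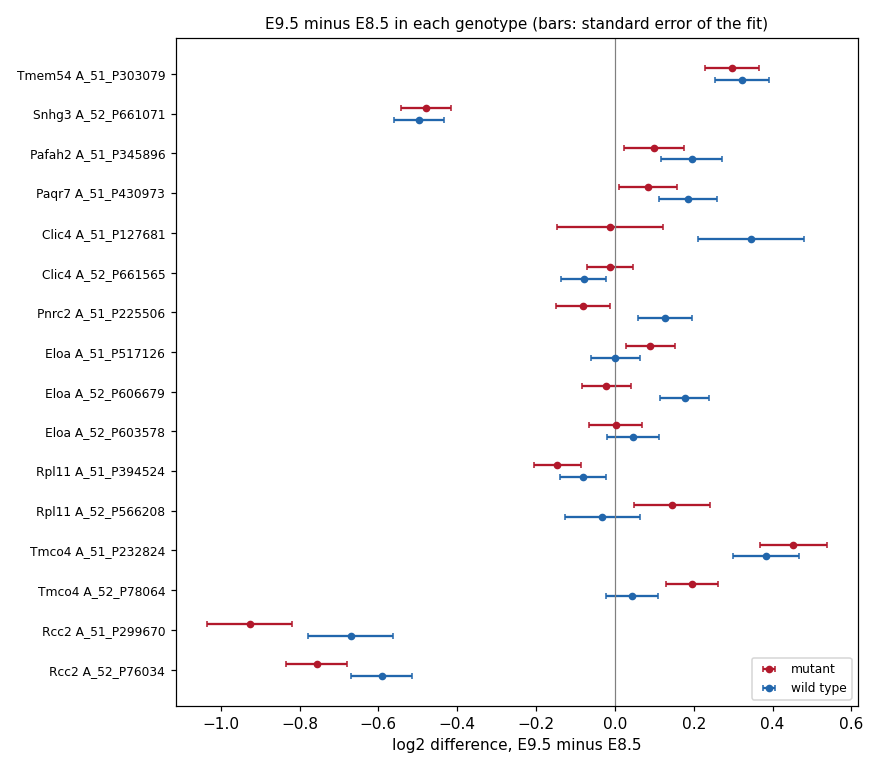
Log2 difference, E9.5 minus E8.5 (horizontal axis), of the 16 probes in mutants (red) and wild types (blue); points are estimates of the fit and bars their standard errors, with 3 arrays per group. Both Rcc2 probes and Snhg3 lie below -0.4 in both genotypes, and Tmco4 A_51_P232824 and Tmem54 lie near 0.3 or above. Tmco4 A_52_P78064 was not well above background on the mutant E8.5 arrays, and its point in mutants is not read.

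The 10 genes were spread over 11.4 Mb of chromosome 4. Counting tested genes along the chromosome from Arid1a, Tmem54 was 67 and Snhg3 26 genes to one side. On the other side, Pafah2 was 15, Paqr7 17, Clic4 28, Pnrc2 35, Eloa 42, Rpl11 43, Tmco4 71 and Rcc2 85 genes away. Eloa and Rpl11 were neighbours among tested genes. All of Rpl11, Eloa, Pnrc2, Clic4 and Snhg3 lie on the minus strand, as does Arid1a, and the other 5 on the plus strand.

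Genes near Arid1a that were not among the 10 were counted in the same way. Of the 100 tested genes on each side of Arid1a, 190 were not members, and 2.11% of these passed the threshold between genotypes at E9.5 and 1.58% at E8.5. In the rest of chromosome 4 (581 genes) 2.41% and 1.55% passed, and among all 13894 tested genes 1.89% and 1.27%. The members were picked for their difference between genotypes, so leaving them out lowers the share near Arid1a by construction, and nothing is read from these shares. The median difference of the 190 genes was -0.017 at E9.5 and -0.0096 at E8.5.

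By distance, probes of other genes within 1 Mb of the Arid1a probe passed in 1 of 55 cases at E9.5 and 0 of 55 at E8.5. Between 1 and 2.5 Mb, 3 of 59 such probes (5.08%) passed at each stage. From 2.5 to 5 Mb it was 1 of 100 at each stage, and from 5 to 10 Mb 2 of 126. From 10 to 20 Mb it was 2.17% of 277 at E9.5 and 1.81% at E8.5. Over 20 Mb away on chromosome 4 it was 1.57% of 635 at E9.5 and 0.945% at E8.5, and on other chromosomes 1.44% of 18680 and 0.931%. These shares too leave out the members. Of non-members within 2.5 Mb, 2 probes passed at both stages, and they are named here after their values were seen. Transcript AK032599 (A_52_P135424, 1.66 Mb away) differed by -0.79 at E9.5 and -0.93 at E8.5. Trnau1ap (A_52_P193233, 1.36 Mb to the other side), which acts in the insertion of selenocysteine, differed by -0.33 at E9.5 and -0.37 at E8.5. Each of these values is of a single probe, and other probes of Trnau1ap are not given here. With each gene taken at its brightest probe, none of the 190 non-members of the neighbour list passed at both stages. The values are therefore not read as those of a gene.

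**Figure D5:**
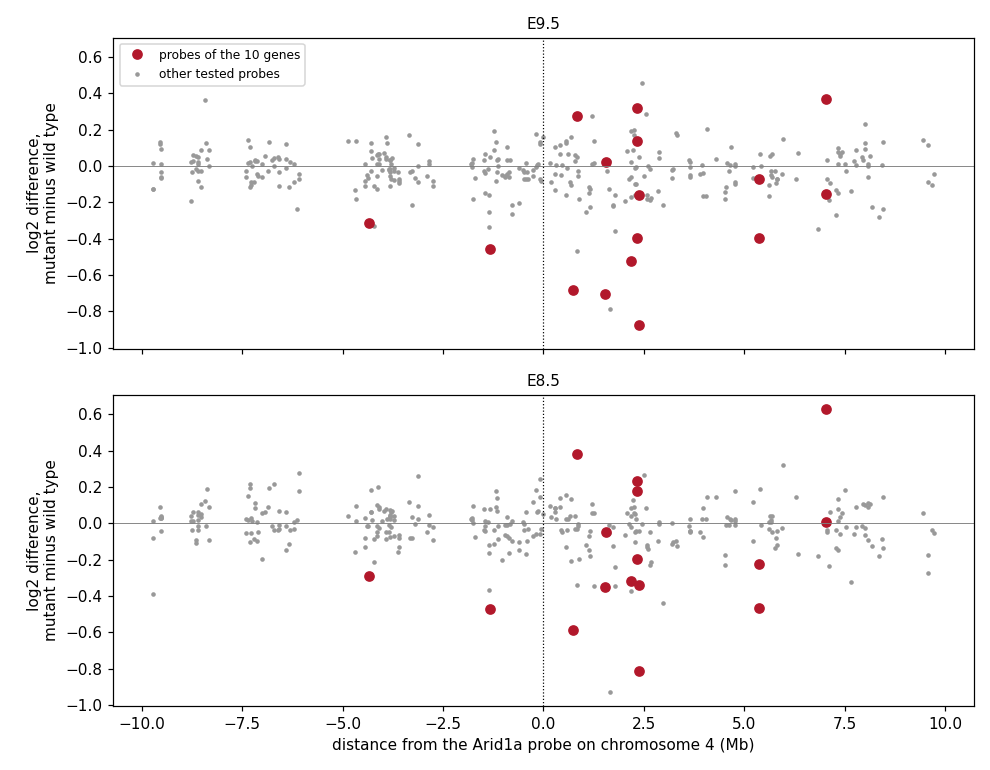
Log2 difference, mutant minus wild type (vertical axis), against distance from the Arid1a probe in Mb (horizontal axis) for tested probes of chromosome 4 within 10 Mb, at E9.5 (top) and E8.5 (bottom); red points are probes of the 10 genes and grey points are other probes. Most grey points lie within 0.2 of 0, and 1 grey point 1.66 Mb away (AK032599) lies at -0.79 and -0.93.

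For each gene's brightest probe, the probe of another named gene with the most similar log2 ratios over the 12 arrays was found among 18358 candidates, as a description. The arrays share slides and the reference RNA, and the 4 groups set much of each correlation. Pearson's r was 0.98 for Tmco4 with Arhgef16, which also lies on chromosome 4, 0.97 for Pafah2 with Emid1 and 0.96 for Rcc2 with Snhg17. It was 0.96 for Rpl11 with Tulp2 and for Tmem54 with Bcar3, 0.95 for Pnrc2 with Mtfp1 and for Snhg3 with Fam117b, 0.94 for Paqr7 with Cryzl2 and for Eloa with Cltrn, and 0.91 for Clic4 with Card10. In 9 of the 10 cases the most similar probe lay on another chromosome. Of all 20065 tested probes 18680 lay on chromosomes other than chromosome 4, so nothing is read from this count.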

How the data were processed

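The 12 deposited per-array files hold spot intensity values of both channels from Agilent Feature Extraction 9.5.1.1, per the file headers. They also hold processed signals and a log10 ratio, both dye-normalized per the file headers, and flags of spot quality. One further table, deposited by the authors, gives log2 ratios with each probe's median subtracted, with a direction and scale that matched the per-array files (r = 1). The new fits used limma 3.58.1 and the data.table package (1.17.8) in R 4.3.3. Background was corrected with normexp at an offset of 50. Log2 ratios were normalized by loess within arrays, with control spots at weight 0, and a probe's repeated spots were averaged. Spots over 20 units below local background were set missing. After normalization, spots flagged in either channel as non-uniform or as population outliers were set missing too. Probes with Cy5 well above background on all 3 arrays of a group (20065) were fitted with a mean per group, eBayes and Benjamini-Hochberg adjustment over all probes at 0.05. For the neighbour counts each gene was its brightest probe. Single channels were scaled by Aquantile. The fit was tested on simulated data. Replicate number equals slide and scan, per the file headers, and deviations of same-numbered arrays from their group means correlated with r from -0.0085 to 0.40. Arrays are biological replicates per the labels, and their number limits the precision.

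The 10 genes, the neighbour list (100 tested genes on each side of Arid1a), the marker lists and the tests were chosen with earlier results of these data known. Named were all probes of the 10 genes, Arid1a, the most similar probe for each gene's brightest probe, and non-member probes within 2.5 Mb called in both genotype contrasts. No non-member of the neighbour list was called in both at its brightest probe. The alternatives were other signals, normalization, offset, filters, blocks, weights, 1 probe per gene, fewer arrays, the Xist level and the deposited table. The Cy5 channel alone and the removal of both wild-type arrays of replicate 3 were added after seeing the data. Gene names were updated from a RefSeq table, through accessions (23474 probes), symbols (6679) or older symbols (2892), and 8129 kept their name. No other probe sequence or genome was used here.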

Additional observations from a re-analysis of the deposited data

Results flagged for a closer look

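The Pnrc2 probe A_51_P225506 was flagged by a search of the 16 probes for differences of opposite sign between groups on all 3 slides. Its stage change was below 0 on all 3 slides in mutants and above 0 on all 3 in wild types. The slide values are thus what the search picked and carry no test. In mutants, E9.5 minus E8.5 was -0.11, -0.022 and -0.11 on slides 1 to 3, against 0.16, 0.096 and 0.12 in wild types. The difference between these stage changes, mutant minus wild type, was -0.208 ± 0.097 (standard error, n = 3 arrays per group), so the genotype difference was wider at E9.5. In the fit across all probes this did not pass the threshold (limma adjusted p = 0.9), and neither did the stage change in mutants (adjusted p = 0.476) or in wild types (adjusted p = 0.215, both limma).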

How the results depend on the processing

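None of the differences of the 16 probes that passed the threshold changed sign under any alternative run. At E9.5 the 302 probes called between genotypes became 135 with processed signals, 34 with median centring, 148 in the authors' deposited table, 146 with the Xist covariate and 139 without the 3 arrays high in trophoblast transcripts. The 9 called among the 16 became 5, 1, 5, 6 and 4. At E8.5 the 200 became 7 with median centring, 319 with the slide or replicate block, 383 with array weights, 27 with the Xist covariate, 86 without the 3 trophoblast-high arrays and 111 without both wild-type arrays of replicate 3. The 7 among the 16 became 0, 9, 8, 1, 5 and 4. Between stages, the 3739 in mutants became 2217 with median centring (2123 higher, 94 lower, against 1919 and 1820), 1580 with the Xist covariate and 1496 without the 3 arrays. The 4066 in wild types became 1821 with median centring (1722 higher, 99 lower, against 2206 and 1860) and 2667 without both arrays of replicate 3. Among the 16, stage calls became 3 in each genotype with median centring, against 6 and 5, and 8 in wild types with the replicate block. The 0 calls of stage dependence became 1 with the block, 7 with array weights, 2 without the 3 arrays, 1 with Cy5 alone and 3 without both wild-type arrays of replicate 3, and it could not be fitted on the arrays of 1 contrast. The causes were not tested.

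Leaving out 1 array gave 163 to 406 calls between genotypes at E9.5 (5 to 10 of the 16) and 77 to 219 at E8.5 (3 to 7). It gave 2527 to 4174 stage calls in mutants and 2792 to 4068 in wild types (5 to 6 of the 16 in both), and 0 to 5 of stage dependence (0 of the 16). At E9.5, calls numbered 179 without mutant replicate 2, 170 without wild-type replicate 1 and 163 without wild-type replicate 2, and 5 of the 16 passed without mutant replicate 1 or 2 or wild-type replicate 2. At E8.5, calls numbered 121, 77 and 100 without mutant replicates 1, 2 and 3, and 126 and 117 without wild-type replicates 1 and 3. Of the 16, 3 then passed without mutant replicate 2 or wild-type replicate 1, and 4 without mutant replicate 3. The replicate block added 2 genotype calls at E8.5 (Rpl11 A_52_P566208 at -0.337, Tmem54 at -0.29), 1 at E9.5 (Paqr7 at 0.278) and 3 stage calls in wild types (Eloa A_52_P606679 at 0.177, Clic4 A_51_P127681 at 0.345, Paqr7 at 0.185), and changed no other call among the 16. Signal near background limits Clic4 A_52_P661565, Tmco4 A_52_P78064 and Eloa A_52_P603578.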
